A study of Homo sapiens with 37 samples.

Results

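The interleukin-6 family described here holds 8 genes, the 4 ligands IL6, LIF, IL11 and CLCF1 and the 4 receptor chains IL6R, IL6ST, OSMR and LIFR. Each symbol was found among the 57773 Ensembl gene identifiers of the count tables, and all 8 passed the filter on low counts in every comparison. Across the models the ligand IL6 rose in 6 of 9 comparisons and fell in 2, both of them in IMR-90 fibroblasts, where IL11 rose instead. The shared receptor chain IL6ST rose in 2 comparisons, was lower in none that passed the test, and was the most abundant receptor per length in 37 of 37 libraries.

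Cytokines of this family signal through IL6ST, also called gp130, which is carried by most cell types. IL6 first binds IL6R, and IL11 first binds IL11RA, before either pairs with IL6ST, whereas LIF joins IL6ST to LIFR and CLCF1 acts through CNTFR, LIFR and IL6ST. OSMR pairs with IL6ST to receive oncostatin M. The receptors switch on JAK kinases and STAT3, and STAT3 induces SOCS3, which then blocks IL6ST. IL6 secretion is a known feature of senescent fibroblasts, which have stopped dividing for good.

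The study sequenced ribosome-depleted total RNA of 37 libraries in 17 groups, to compare cells driven towards senescence, a lasting stop of division, with control cells of the same kind. Human aortic endothelial cells (HAEC, population doubling level 4 to 6) gave 3 libraries after 4 Gy of ionising radiation and 2 control libraries. Human umbilical vein endothelial cells (HUVEC, level 3 to 5) gave 3 libraries after 4 Gy and 3 control libraries. Both grew in endothelial media, whereas fibroblasts grew in DMEM containing 10% serum. IMR-90, a fetal lung fibroblast strain, gave 2 libraries irradiated with 10 Gy at level 15 and 2 of late passage at level 52. Another 2 libraries at level 15, called proliferating here, served as control for both. WI-38, another fetal lung fibroblast strain, was used in 2 sets of libraries, with all groups at level 25 except those of late passage. The first set holds 2 libraries of cells given 2 µg/mL doxorubicin for 24 h, a drug that damages DNA, and 2 of their controls. It also holds 2 libraries of cells given a lentivirus carrying HRAS G12V, a mutant form of the growth-signal protein HRAS, and 2 given an empty vector. Both of these were infected at a multiplicity of 10 and exposed to 1 µg/mL puromycin. The second set holds a repeat of the doxorubicin experiment with 2 treated and 2 control libraries, 2 libraries irradiated with 10 Gy with 2 controls, and 2 of late passage at level 53 to 55 with 2 of proliferating cells. The labels do not give the time between treatment and harvest, the promoter of the HRAS vector, or whether the libraries of a group came from separate cultures. The spread behind each p-value is therefore that between these samples, and it may be only technical.

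Each library held between 102293388 and 370996204 counts. In the second WI-38 set of 12 libraries, protein-coding genes took 82.0% to 91.1% of the counts and mitochondrial genes 3.21% to 14.02%, against 50.7% to 66.9% and 0.101% to 0.607% in the other 25. HRAS was at 1944 and 1989 CPM in WI-38 with HRAS G12V, against 36.1 and 47.0 CPM with the empty vector, as the labels say. Levels are in CPM, the count divided by a library total that TMM factors adjust, and were scaled within each of 5 sets (HAEC, HUVEC, IMR-90 and the 2 WI-38 sets), so levels set across them are only approximate. The 5 endothelial markers CDH5, VWF, KDR, TEK and CLDN5 summed to 891 to 1222 CPM in the endothelial libraries, against 11.6 to 306 CPM in the fibroblasts. The 6 fibroblast markers COL1A1, COL1A2, COL3A1, PDGFRA, DCN and LUM summed to 861 to 14706 CPM in the fibroblasts, against 15.1 to 36.9 CPM in endothelium. The sum of 5 leukocyte markers was 23.2 to 27.5 CPM in HUVEC, against 0.678 to 1.13 CPM in HAEC and 0.431 to 6.13 CPM in the fibroblasts. Marker genes of dividing cells (MKI67, TOP2A, CCNB1, CDK1 and BUB1) summed to less in every treated library than in its controls in 8 of the 9 comparisons, irradiated IMR-90 being the exception. The sum was 285 and 287 CPM in irradiated IMR-90 and 194 and 207 CPM at late passage. It was 214 and 221 CPM in the libraries called proliferating. In the libraries labelled irradiated IMR-90, 4 of the 5 were called higher, led by CCNB1 (log2 fold change 1.00 ± 0.07, SE). At late passage CCNB1 (0.51 ± 0.07) and BUB1 (0.22 ± 0.07) were called higher and TOP2A (-0.40 ± 0.05) lower. All 6 fibroblast markers were called lower in both IMR-90 comparisons (median -1.82 after irradiation and -1.59 at late passage), as were most of the 8 members there. The directions given for IMR-90 rest on the labels of its libraries, and the part of either marker list in these directions was not tested. In bulk RNA, fewer cells that express a gene and less of its RNA per cell cannot be told apart.

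IL6 and IL11 are shown by their promoters because they moved in opposite directions in IMR-90. RefSeq promoters (GRCh38.p14) were at hand for 6 of the 8 genes, and the 250 bases before the start were searched on both strands for AP-1 (TGANTCA), STAT (TTCNNNGAA), C/EBP (TTGCNNAA) and the NF-kappaB consensus. Capitals mark the matches.
IL6, chr7:22726950-22727199, plus strand: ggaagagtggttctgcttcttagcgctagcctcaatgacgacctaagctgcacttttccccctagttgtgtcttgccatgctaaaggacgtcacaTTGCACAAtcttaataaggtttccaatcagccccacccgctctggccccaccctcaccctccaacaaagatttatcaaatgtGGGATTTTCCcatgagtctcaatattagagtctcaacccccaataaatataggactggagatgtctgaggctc
IL11, chr19:55370464-55370713, minus strand: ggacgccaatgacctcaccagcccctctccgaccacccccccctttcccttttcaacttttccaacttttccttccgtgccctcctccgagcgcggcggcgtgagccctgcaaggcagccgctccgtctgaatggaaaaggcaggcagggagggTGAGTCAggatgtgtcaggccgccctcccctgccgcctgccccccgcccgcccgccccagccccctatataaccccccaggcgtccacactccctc
The IL6 window held a C/EBP match and an NF-kappaB match and no AP-1 or STAT match, at 47.6% G and C. The IL11 window held an AP-1 match and none of the others, at 67.2% G and C. Among 35114 RefSeq promoters of the same length 6.57% held the AP-1 letters, 6.57% the STAT letters, 9.05% the C/EBP letters and 6.88% the NF-kappaB consensus. Of the receptors, OSMR held a C/EBP match, LIFR held STAT matches at 2 of its 3 starts and a C/EBP match at 1, and IL6R and IL6ST held none of these letters in the window.

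Called here means a Benjamini-Hochberg adjusted p below 0.05 over all genes tested, by edgeR's quasi-likelihood test, and each fold change is the log2 ratio of treated to control cells, followed by ± its standard error. In irradiated HAEC 3 members rose and 2 fell, where edgeR called 39.7% of all genes tested (19.7% higher, 19.9% lower). In irradiated HUVEC 1 rose and 2 fell, against 38.7% of genes called (18.6% higher, 20.1% lower). In irradiated IMR-90 1 rose and 6 fell (49.1% of genes called, 26.6% higher and 22.5% lower), and at late passage likewise 1 rose and 6 fell (50.1% called, 26.6% higher and 23.5% lower). These 2 comparisons share their control libraries, so their counts are not independent. In the first WI-38 set 5 members rose and 0 fell with doxorubicin (26.8% of genes called, 13.6% higher and 13.2% lower), and 6 rose and 0 fell with HRAS (45.9% called, 27.1% higher and 18.9% lower). In the second set 3 rose and 0 fell with doxorubicin (5.45% called, 3.18% higher and 2.26% lower), and 4 rose and 0 fell after irradiation (15% called, 8.89% higher and 6.09% lower). At late passage of WI-38 edgeR called 0 of the 8, where it called 12.6% of all genes (5.80% higher, 6.82% lower). There 2 members, IL6 and OSMR, had an unadjusted p below 0.05, and DESeq2's Wald test called 2. In HUVEC the share of members called was near that of all genes, and at late passage of WI-38 it was not far below it. The number called also depends on the spread between libraries, which differed between sets. Given as the biological coefficient of variation, it was 38.1% in the second WI-38 set, against 5.69% in HAEC.

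**Figure D1:**
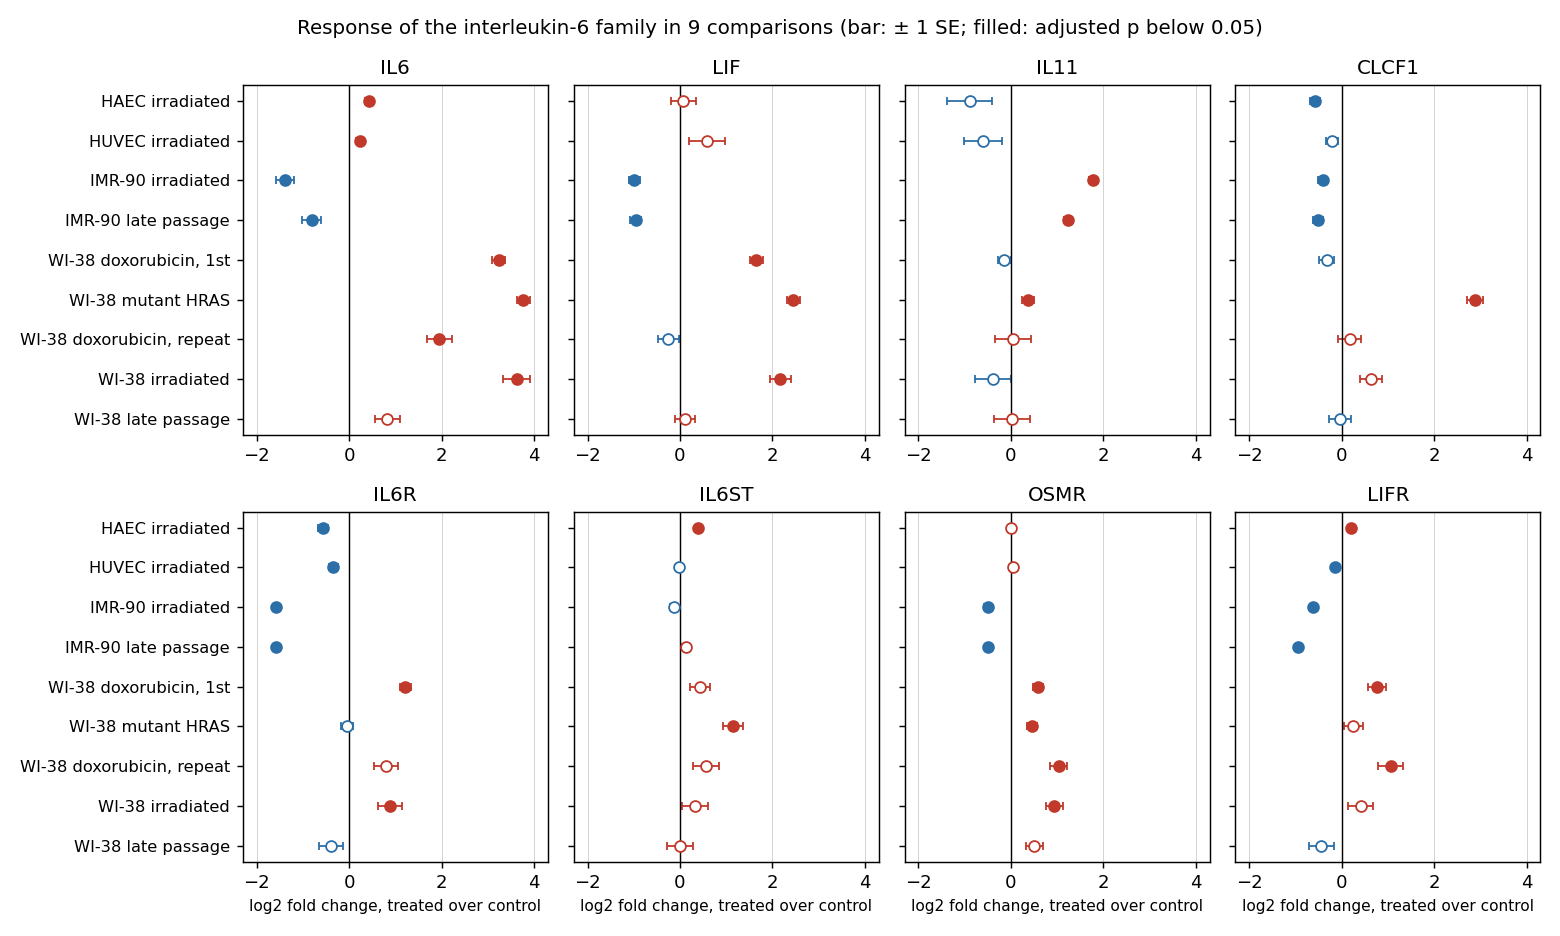
Log2 fold change of each member (panels) in the 9 comparisons (rows), treated over control, with bars of ± 1 standard error and filled points where the edgeR adjusted p was below 0.05. The 4 WI-38 comparisons by doxorubicin, HRAS and irradiation lie to the right for IL6, IL6ST, OSMR and LIFR, with all 4 points filled for IL6 and OSMR. Late passage of WI-38 also lies to the right for IL6 and OSMR, with open points. Both IMR-90 comparisons lie to the left for IL6, LIF, CLCF1, IL6R, OSMR and LIFR and to the right for IL11.

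IL6, the ligand the family is named for, rose most in WI-38. It was at 22.9 and 23.4 CPM after doxorubicin in the first set, against 2.41 and 2.50 CPM in its controls (3.24 ± 0.14, 9.43-fold, edgeR adjusted p = 1.21e-08). With HRAS it was at 32.4 and 34.2 CPM, against 2.35 and 2.52 CPM with the empty vector (3.77 ± 0.14, 13.7-fold, edgeR adjusted p = 3.32e-09). In both experiments the treated libraries lay close together and far above their controls. The fibroblast markers fell with HRAS, to a sum of 861 to 955 CPM, against 5704 to 6645 CPM with the empty vector, and their part in the HRAS results was not tested. After irradiation IL6 was at 70.7 and 87.1 CPM, against 6.40 and 6.33 CPM in the controls (3.63 ± 0.29, 12.4-fold, edgeR adjusted p = 1.50e-06). In the repeat of the doxorubicin experiment it was at 97.8 and 50.2 CPM, against 17.9 and 20.3 CPM in the controls (1.96 ± 0.27, 3.88-fold, edgeR adjusted p = 6.85e-04). The treated libraries of the repeat differed most between themselves, and yet both lay above both controls. Late passage gave 31.7 and 23.5 CPM, against 16.3 and 14.7 CPM in proliferating WI-38, groups that did not overlap, but the difference missed the threshold (0.83 ± 0.26, edgeR adjusted p = 0.0547, and 0.00718 unadjusted).

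In endothelium the IL6 changes were small. IL6 was at 6.41, 7.32 and 6.78 CPM in irradiated HAEC, against 5.41 and 4.67 CPM in control HAEC (1.35-fold, edgeR adjusted p = 6.81e-04). In irradiated HUVEC it was at 5.85, 6.20 and 6.19 CPM, against 5.29, 4.69 and 5.56 CPM in control HUVEC (1.17-fold, edgeR adjusted p = 0.0321). The groups did not overlap in either cell type, but the HUVEC call was lost without any 1 of 4 libraries (edgeR adjusted p = 0.0562 without control 1, 0.180 without control 2, 0.0813 without irradiated 2 and 0.0856 without irradiated 3). The treated IMR-90 groups had the lowest mean IL6 levels of the 17 groups. IL6 stood at 1.60 and 1.10 CPM in irradiated and 1.74 and 2.29 CPM in late-passage IMR-90, against 3.99 and 3.08 CPM in proliferating IMR-90. Both treated groups lay below the controls, 2.61-fold after irradiation (edgeR adjusted p = 5.25e-05) and 1.76-fold at late passage (edgeR adjusted p = 0.00341), the second call being lost without proliferating replicate 1 (edgeR adjusted p = 0.0671).

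By group mean, IL6 was highest in irradiated WI-38 (78.9 ± 11.6 CPM, SD, n = 2) and lowest in irradiated IMR-90 (1.35 ± 0.35 CPM, SD, n = 2), 58.4-fold apart. The order then ran through the doxorubicin repeat, HRAS, late-passage WI-38 and the first doxorubicin experiment, all with means above those of the control groups. Neighbours in this order overlapped in 3 of 16 places, among them the top pair of irradiated and doxorubicin-treated WI-38, and scaling all 37 libraries together left the highest and lowest groups as they were. Control WI-38 themselves were not alike, with 17.9 and 20.3 CPM in the doxorubicin controls of the repeat, against 2.41 and 2.50 CPM in those of the first set. Within the second set the irradiation controls held 6.40 and 6.33 CPM, and the proliferating cells 16.3 and 14.7 CPM. The dividing-cell markers summed to 472 to 480 CPM in these irradiation controls and 109 to 117 CPM in the proliferating cells. In the doxorubicin controls of the repeat they summed to 80.2 to 108 CPM, and their part in the IL6 levels was not tested. Between the sets the shares of protein-coding and mitochondrial counts also differ, and the experiment and the set of libraries cannot be told apart.

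**Figure D2:**
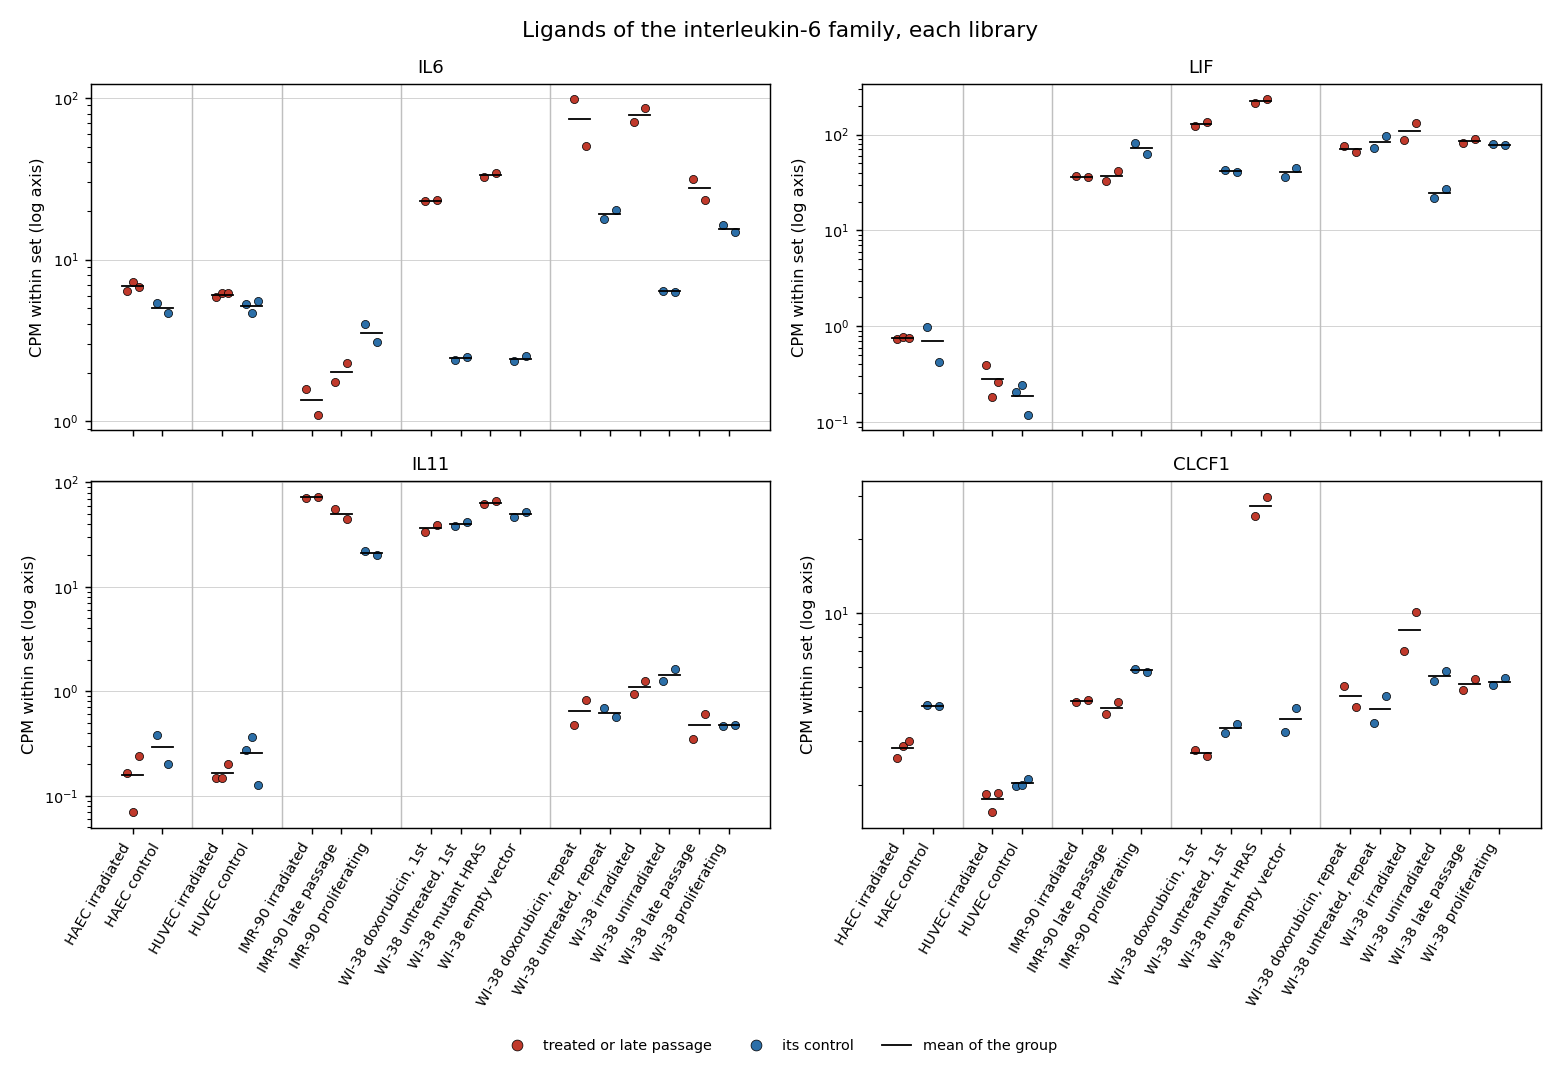
CPM of the 4 ligands in each library (points, log axis) with group means (bars), treated or late-passage groups in red and their controls in blue, and vertical lines between the 5 separately scaled sets. IL6 in treated WI-38 reaches 97.8 CPM, LIF and IL11 lie at or below 1 CPM in all endothelial libraries, and IL11 drops to between 0.350 and 1.64 CPM in the second WI-38 set.

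LIF, a ligand first known for its action on leukaemia cells, followed IL6 in several WI-38 experiments but not in all. It was at 211 and 233 CPM with HRAS, against 36.4 and 44.7 CPM with the empty vector (2.45 ± 0.14, 5.47-fold, edgeR adjusted p = 7.33e-08). After doxorubicin in the first set it was at 123 and 136 CPM, against 42.3 and 40.4 CPM in the controls (1.65 ± 0.14, 3.14-fold, edgeR adjusted p = 3.12e-06). Irradiated WI-38 held 86.9 and 133 CPM, against 21.9 and 27.0 CPM in their controls (2.17 ± 0.23, 4.51-fold, edgeR adjusted p = 1.71e-05). In these 3 experiments every treated library lay above every control. The repeat of doxorubicin gave 75.8 and 66.2 CPM, against 72.6 and 96.1 CPM in its controls, groups that overlapped (edgeR adjusted p = 0.611). Late passage gave 81.1 and 89.0 CPM, against 80.4 and 77.1 CPM in proliferating WI-38 (edgeR adjusted p = 0.823). In the second set, then, the controls of the irradiation experiment were the ones low in LIF.

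In IMR-90 LIF fell to 36.6 and 36.2 CPM after irradiation and to 32.5 and 41.7 CPM at late passage, against 81.9 and 62.4 CPM in proliferating cells. The groups did not overlap, at 1.98-fold lower after irradiation (edgeR adjusted p = 7.50e-06) and 1.95-fold lower at late passage (edgeR adjusted p = 9.76e-06). Endothelial cells held little LIF, 0.744, 0.769 and 0.763 CPM in irradiated and 0.987 and 0.423 CPM in control HAEC, and at most 0.398 CPM in HUVEC of either group. Neither endothelial difference passed (edgeR adjusted p = 0.877 in HAEC and 0.262 in HUVEC). LIF had the widest range of the 8 genes, its group means reaching 222 ± 15.3 CPM (SD, n = 2) in WI-38 with HRAS, against 0.189 ± 0.0627 CPM (SD, n = 3) in HUVEC controls, a 1174-fold range, and 11 of the 16 neighbouring pairs in its order overlapped.

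IL11, a ligand made by fibroblasts that acts through IL11RA, was the 1 member that rose in IMR-90. It was at 71.7 and 72.4 CPM in irradiated and 55.4 and 44.4 CPM in late-passage IMR-90, against 21.95 and 20.2 CPM in proliferating IMR-90. All 4 treated libraries lay above both controls, 3.41-fold after irradiation (1.77 ± 0.09, edgeR adjusted p = 9.97e-10) and 2.37-fold at late passage (1.24 ± 0.09, edgeR adjusted p = 3.47e-08). Set against each other directly, irradiated IMR-90 held more IL11 than late-passage IMR-90 (0.53 ± 0.08, edgeR adjusted p = 0.00137). The fibroblast markers moved the other way, with a sum of 2848 to 2908 CPM in irradiated and 4353 to 4701 CPM in late-passage IMR-90, against 13959 to 14706 CPM in proliferating IMR-90, and their part in the result was not tested.

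In WI-38 IL11 passed in 1 of 5 comparisons. With HRAS it was at 61.5 and 66.1 CPM, against 46.7 and 52.01 CPM with the empty vector (0.37 ± 0.13, 1.29-fold, edgeR adjusted p = 0.0368). This call was lost when only these groups were fitted (edgeR adjusted p = 0.391) and without empty-vector 1 (0.0579), HRAS 1 (0.0790) or HRAS 2 (0.168). After doxorubicin in the first set IL11 was at 33.7 and 39.3 CPM, against 38.2 and 42.2 CPM in the controls, which overlapped (edgeR adjusted p = 0.488). In the second set it lay between 0.350 and 1.64 CPM in all 12 libraries, and none of the 3 comparisons there passed (edgeR adjusted p = 0.974, 0.548 and 0.994). Doxorubicin controls of the 2 sets thus stood at 0.686 and 0.564 CPM in the repeat, against 38.2 and 42.2 CPM in the first set, a gap in untreated cells of the same strain and doubling level that cannot be told apart from the set of libraries. Endothelial cells held 0.0694 to 0.382 CPM, and neither difference there passed (edgeR adjusted p = 0.168 in HAEC and 0.272 in HUVEC). Irradiated IMR-90 had the highest group mean with each set scaled alone (72.0 ± 0.488 CPM, SD, n = 2), but WI-38 with HRAS had it when all 37 libraries were scaled together.

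CLCF1, a ligand of the CNTFR, LIFR and IL6ST complex, rose in 1 comparison. With HRAS it was at 24.7 and 29.6 CPM, against 3.28 and 4.12 CPM with the empty vector (2.88 ± 0.17, 7.35-fold, edgeR adjusted p = 8.18e-08), and no library outside the HRAS group exceeded 10.1 CPM. It fell to 4.36 and 4.41 CPM in irradiated and 3.90 and 4.32 CPM in late-passage IMR-90, against 5.91 and 5.77 CPM in proliferating IMR-90 (1.33-fold lower, edgeR adjusted p = 0.00405, and 1.42-fold lower, edgeR adjusted p = 9.37e-04). It also fell in irradiated HAEC, to 2.56, 2.87 and 3.02 CPM, against 4.21 and 4.17 CPM in control HAEC (1.49-fold lower, edgeR adjusted p = 2.36e-04). None of these groups overlapped with its control. In irradiated WI-38 CLCF1 was at 6.97 and 10.1 CPM, against 5.27 and 5.79 CPM in the controls, groups that did not overlap but missed the threshold (0.63 ± 0.24, edgeR adjusted p = 0.0961). The remaining 4 comparisons lay between -0.33 and 0.17 and did not pass.

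IL6R, the chain that gives a cell its own response to IL6, went down in endothelium and in IMR-90 and up in some WI-38 experiments. It fell to 8.30 and 7.98 CPM in irradiated and 8.19 and 8.02 CPM in late-passage IMR-90, against 24.3 and 24.3 CPM in proliferating IMR-90. The 4 treated libraries lay close together and far below the controls (2.98-fold lower, edgeR adjusted p = 3.36e-10, and 3.00-fold lower, edgeR adjusted p = 3.15e-10). In irradiated HAEC it was at 3.22, 3.60 and 2.78 CPM, against 4.87 and 4.55 CPM in control HAEC (1.48-fold lower, edgeR adjusted p = 4.18e-04). In irradiated HUVEC it was at 4.37, 3.71 and 3.88 CPM, against 4.87, 5.55 and 4.72 CPM in control HUVEC (1.26-fold lower, edgeR adjusted p = 0.00582), a call lost without control 2 (edgeR adjusted p = 0.0524). The endothelial groups did not overlap.

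In WI-38 IL6R rose with doxorubicin in the first set, to 21.8 and 23.6 CPM, against 10.0 and 9.48 CPM in the controls (1.22 ± 0.13, 2.33-fold, edgeR adjusted p = 2.40e-05). The repeat gave 16.8 and 16.2 CPM, against 9.46 and 9.63 CPM in its controls, without overlap, but missed the threshold (0.79 ± 0.26, edgeR adjusted p = 0.0966). The difference between the 2 doxorubicin responses was -0.41 ± 0.31 (edgeR adjusted p = 0.581). Irradiated WI-38 held 10.8 and 5.97 CPM, against 5.19 and 3.91 CPM in the controls (0.88 ± 0.26, edgeR adjusted p = 0.0345). This call was lost with DESeq2's size factors (edgeR adjusted p = 0.0513), with only these groups fitted (0.145), and without control 1 (0.0636), control 2 (0.243) or irradiated 1, without which the value fell to 0.35 (0.373). With HRAS, IL6R was at 12.7 and 13.4 CPM, against 13.3 and 13.6 CPM with the empty vector, which overlapped (edgeR adjusted p = 0.798). Late passage gave 13.1 and 10.7 CPM, against 16.3 and 14.9 CPM in proliferating WI-38 (-0.39 ± 0.26, edgeR adjusted p = 0.380).

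IL6ST, the signalling chain shared by the whole family, rose in irradiated HAEC and with HRAS. It was at 1118, 1144 and 1126 CPM in irradiated HAEC, against 846 and 866 CPM in control HAEC (0.40 ± 0.03, 1.32-fold, edgeR adjusted p = 1.48e-10). The change is modest and yet far larger than the spread within either group. In HUVEC it was at 896, 920 and 912 CPM after irradiation, against 895, 909 and 980 CPM in the controls, which overlapped (-0.03 ± 0.04, edgeR adjusted p = 0.600). With HRAS, IL6ST was at 491 and 362 CPM, against 246 and 140 CPM with the empty vector (1.14 ± 0.22, 2.21-fold, edgeR adjusted p = 0.00120). The vector-treated cells were themselves low, since the untreated WI-38 of the same set held 697 and 629 CPM. In IMR-90 it was at 754 and 750 CPM after irradiation and 793 and 992 CPM at late passage, against 815 and 825 CPM in proliferating cells, and neither passed (edgeR adjusted p = 0.231 and 0.239). Doxorubicin gave 921 and 874 CPM, against 697 and 629 CPM in the controls of the first set, and 1038 and 1127 CPM, against 646 and 820 CPM in those of the repeat, without overlap in either but not past the threshold (edgeR adjusted p = 0.170 and 0.297). The irradiated WI-38 libraries, at 837 and 397 CPM, lay on both sides of their controls at 526 and 455 CPM (edgeR adjusted p = 0.464), and late passage at 1253 and 888 CPM did so around 1045 and 1092 CPM (0.00 ± 0.28, edgeR adjusted p = 1.0).

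**Figure D3:**
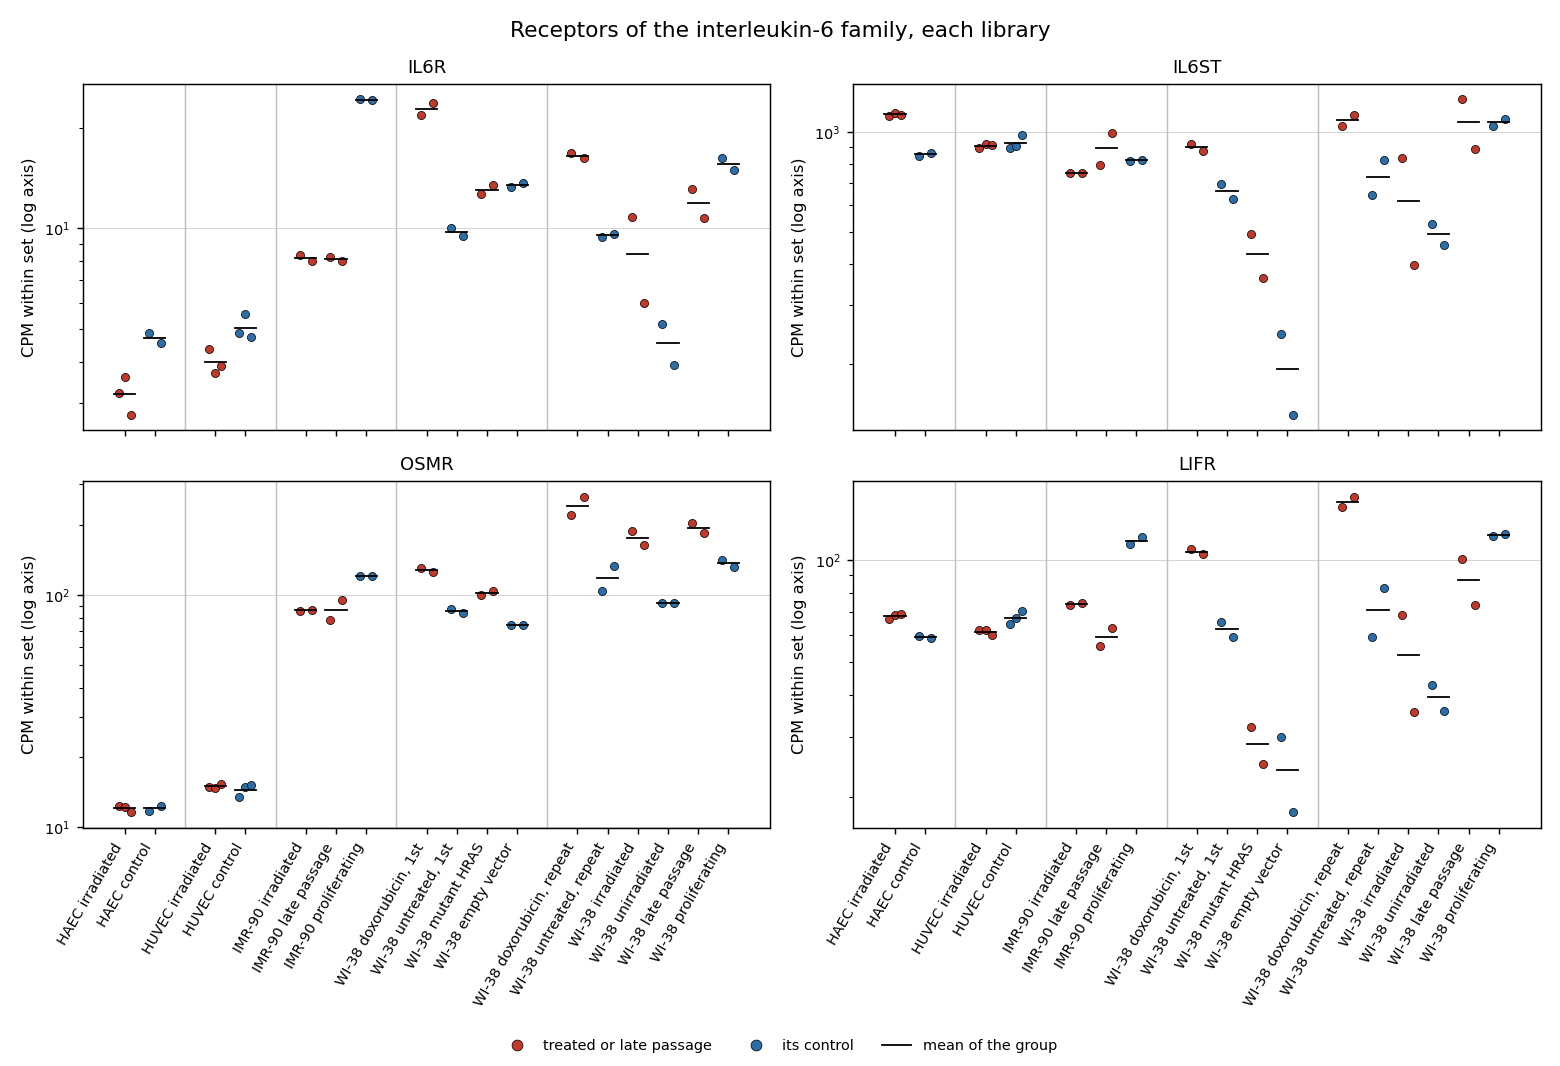
CPM of the 4 receptor genes in each library (points, log axis) with group means (bars), treated or late-passage groups in red, controls in blue, and vertical lines between the 5 separately scaled sets. IL6R in IMR-90 lies between 7.98 and 8.30 CPM in the 4 treated libraries, against 24.3 CPM in both controls, and OSMR lies at 11.6 to 15.4 CPM in the endothelial libraries and at 74.5 CPM or more in the fibroblast libraries.

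OSMR, the receptor chain for oncostatin M, rose in 4 of the 5 WI-38 comparisons. It was at 131 and 126 CPM after doxorubicin in the first set, against 87.0 and 83.5 CPM in the controls (1.503-fold, edgeR adjusted p = 0.00223). The repeat gave 222 and 264 CPM, against 104 and 134 CPM in its controls (2.04-fold, edgeR adjusted p = 0.00473, and 0.0633 without control 1). Irradiated WI-38 held 189 and 164 CPM, against 92.1 and 92.1 CPM in the controls (1.92-fold, edgeR adjusted p = 0.00313). No treated library overlapped with its controls in these 3 experiments. With HRAS it was at 100 and 104 CPM, against 74.5 and 74.6 CPM with the empty vector (1.37-fold, edgeR adjusted p = 0.00577, and 0.211 with only these groups fitted). Late passage gave 204 and 185 CPM, against 142 and 133 CPM in proliferating WI-38, also without overlap, but missed the threshold (0.50 ± 0.18, edgeR adjusted p = 0.0950). IMR-90 went the other way, with 85.8 and 85.9 CPM after irradiation and 77.8 and 95.2 CPM at late passage, against 121 and 121 CPM in proliferating cells (1.41-fold lower, edgeR adjusted p = 9.56e-05, and 1.40-fold lower, edgeR adjusted p = 1.17e-04). In endothelium OSMR lay between 11.6 and 15.4 CPM in all 11 libraries and did not pass in HAEC (edgeR adjusted p = 0.990) or HUVEC (0.568).

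LIFR, which receives LIF together with IL6ST, changed in 6 comparisons and in both directions. It fell to 73.7 and 74.7 CPM in irradiated and 55.8 and 62.8 CPM in late-passage IMR-90, against 112 and 116 CPM in proliferating IMR-90 (1.54-fold lower, edgeR adjusted p = 1.62e-06, and 1.92-fold lower, edgeR adjusted p = 2.22e-08). Irradiated HAEC held 66.7, 68.6 and 69.0 CPM, against 59.6 and 59.0 CPM in control HAEC (1.15-fold higher, edgeR adjusted p = 1.05e-04). Irradiated HUVEC held 62.0, 62.2 and 59.9 CPM, against 64.5, 67.3 and 70.4 CPM in control HUVEC (1.10-fold lower, edgeR adjusted p = 0.00653). These are small changes of opposite sign in groups that did not overlap. With doxorubicin LIFR rose to 108 and 104 CPM in the first set, against 65.6 and 59.2 CPM in the controls (1.70-fold, edgeR adjusted p = 0.0156), and to 143 and 153 CPM in the repeat, against 59.1 and 82.8 CPM in its controls (2.09-fold, edgeR adjusted p = 0.0360). Both calls rest on few libraries. The first was lost without control 1 (edgeR adjusted p = 0.0608), control 2 (0.116) or doxorubicin 1 (0.0839), and the repeat without control 1 (0.313), doxorubicin 1 (0.0709) or doxorubicin 2 (0.123). With HRAS (32.2 and 25.1 CPM, against 30.0 and 18.05 CPM with the empty vector) and in irradiated WI-38 (69.0 and 35.7 CPM, against 42.7 and 35.9 CPM in the controls) the groups overlapped and did not pass. Late passage gave 101 and 73.8 CPM, against 118 and 119 CPM in proliferating WI-38 (-0.44 ± 0.27, edgeR adjusted p = 0.341).

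How far the models differed was tested directly as the difference between their responses. The irradiation response of WI-38 exceeded that of IMR-90 for 6 members and was below it for 1, where 19.9% of all genes were called (8.84% higher, 11.1% lower) and the median over all genes was -0.20. IL6 differed by 4.94 ± 0.39 (edgeR adjusted p = 2.88e-08), LIF by 3.08 ± 0.30 (3.25e-07), IL6R by 2.38 ± 0.32 (1.67e-05) and OSMR by 1.36 ± 0.23 (1.99e-04), all higher in WI-38. IL11 differed by -2.23 ± 0.35 (edgeR adjusted p = 1.24e-04), its response being lower in WI-38. CLCF1 (0.96 ± 0.29, edgeR adjusted p = 0.0226) and LIFR (0.96 ± 0.33, 0.0497) also passed, but each of 6 libraries ended the CLCF1 call when left out, with values from 0.70 to 1.03, and each of 7 ended that of LIFR, with values from 0.40 to 1.10. The late-passage response was likewise higher in WI-38 for IL6 (1.62 ± 0.37, edgeR adjusted p = 0.00665), OSMR (0.97 ± 0.23, 0.00718), IL6R (1.17 ± 0.31, 0.0175) and LIF (1.05 ± 0.29, 0.0217), and lower for IL11 (-1.23 ± 0.37, 0.0355), where 11.9% of all genes were called (4.60% higher, 7.29% lower). Of these, IL6R lost its call without any 1 of 3 libraries, LIF without any 1 of 4 and IL11 without any 1 of 6. The fibroblast markers also responded higher in WI-38 after irradiation (6 of 6 called, median 2.19) and at late passage (2 of 6, median 0.98), and the dividing-cell markers lower (5 of 5 called in both, medians -4.54 and -2.53), and their part in these results was not tested. The strain and the set of libraries differ together in both tests and cannot be told apart.

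Between the endothelial cells the irradiation response of HUVEC was below that of HAEC for IL6ST (-0.43 ± 0.04, edgeR adjusted p = 3.54e-08) and LIFR (-0.34 ± 0.05, 2.34e-05). These were 2 of the 8 members, near the share of all genes called, 18% (8.85% higher, 9.11% lower). The dividing-cell markers fell less in HUVEC, to a sum of 571 to 592 CPM, against 880 to 981 CPM in its controls, than in HAEC, to 335 to 349 CPM, against 967 to 1001 CPM in its controls, and their part in the result was not tested. The repeat of doxorubicin differed from the first experiment for LIF (-1.87 ± 0.28, edgeR adjusted p = 1.69e-04) and IL6 (-1.25 ± 0.32, 0.0258, lost without any 1 of 5 libraries), with 4.42% of all genes called (2.59% higher, 1.83% lower). Both ligands responded less in the repeat, whose controls held more of each. The dividing-cell markers differed in this test too (5 of 5 called higher, median 3.46), with a sum of 80.2 to 108 CPM in the controls of the repeat, against 570 to 586 CPM in those of the first set, and their part was not tested. HRAS differed from doxorubicin in the first set for CLCF1 (3.21 ± 0.23, edgeR adjusted p = 1.15e-06), LIF (0.80 ± 0.19, 0.00605) and IL6 (0.53 ± 0.18, 0.0392), all responding more to HRAS, and for IL6R (-1.27 ± 0.18, 2.23e-04), which responded less. There 35.6% of all genes were called (21.6% higher, 14% lower). Of the markers, 6 of 6 for fibroblasts responded lower and 5 of 5 for dividing cells higher. The dividing-cell sum was 27.9 to 29.5 CPM with HRAS, against 140 to 175 CPM with the empty vector. It was 35.9 to 39.4 CPM after doxorubicin, against 570 to 586 CPM in the controls. The part of either marker list was not tested. The IL6 call of this difference was lost without the filter on low counts (edgeR adjusted p = 0.0721) and without any 1 of 6 libraries. Irradiated IMR-90 held more IL11 and LIFR (0.32 ± 0.06, edgeR adjusted p = 0.00515) than late-passage IMR-90, with 10.6% of all genes called (5.12% higher, 5.45% lower), and the LIFR call was lost without irradiated 1 (0.0590) or irradiated 2 (0.0770).

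Genes were compared with each other only as CPM per kb of exons, which run from 1.975 kb in CLCF1 to 11.864 kb in LIFR. Among receptors IL6ST was the highest in 37 of 37 libraries, at 15.1 to 135 CPM per kb, and IL6R the lowest in 36 of 37. The middle ranks separated the cell types. In the 11 endothelial libraries LIFR exceeded OSMR, with a per-length ratio of 2.36 to 3.60, whereas in the 26 fibroblast libraries it was below OSMR, at 0.131 to 0.583. Among ligands IL6 led in 11 of 11 endothelial libraries, at 2.26 to 3.54 CPM per kb. In IMR-90 IL11 led in the 4 treated libraries and LIF in the 2 proliferating ones, and IL6 was the lowest in 6 of 6. In the first WI-38 set LIF led in the 4 treated libraries and IL11 in the 4 controls. In the second set LIF led in 8 of 12 and IL6 in the 4 libraries of doxorubicin-treated and irradiated cells, and IL11 was the lowest in 12 of 12.

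**Figure D4:**
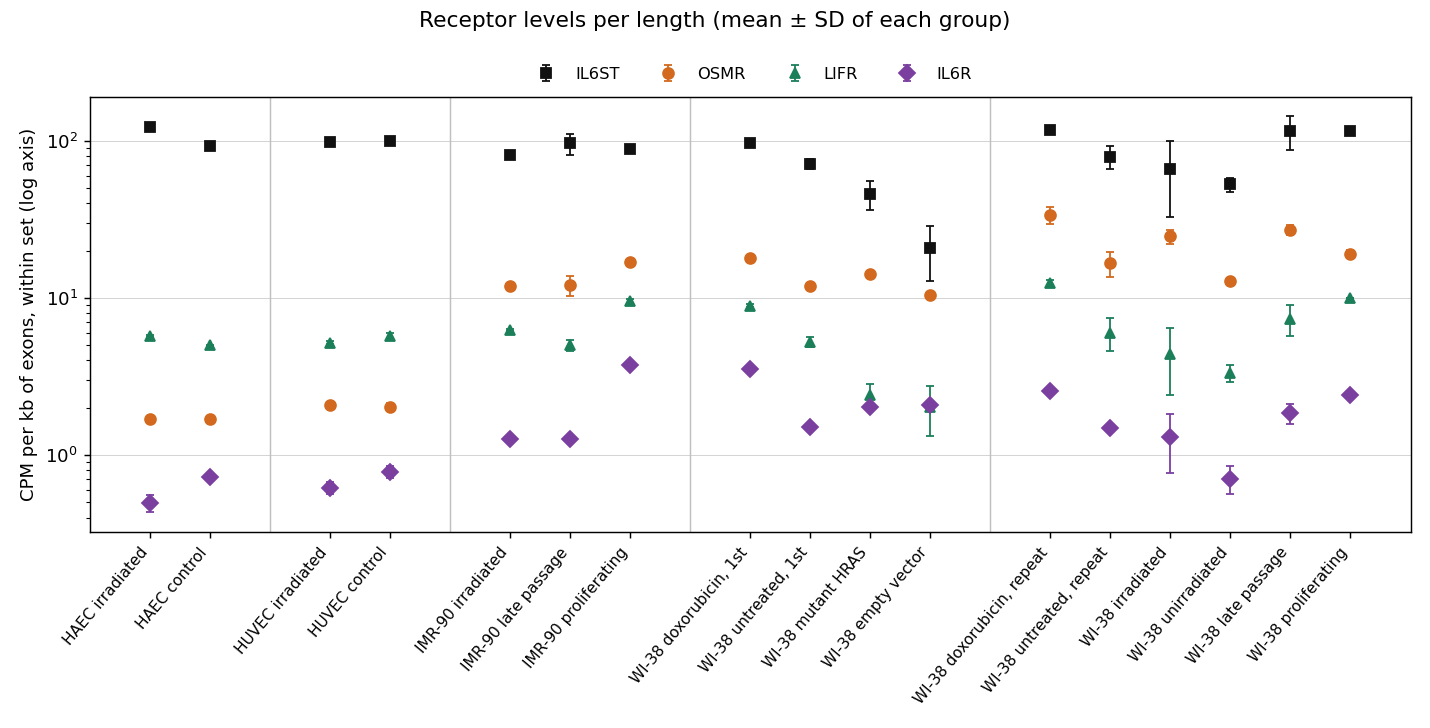
Mean CPM per kb of exons of IL6ST, OSMR, LIFR and IL6R in the 17 groups (log axis), with error bars of ± 1 SD over the libraries of a group and vertical lines between the 5 separately scaled sets. IL6ST lies on top in every group, and LIFR lies above OSMR in the 4 endothelial groups and below it in all 13 fibroblast groups.

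The ratio of IL6ST to IL6R per length gives how many signalling chains' worth of RNA stood against 1 of the ligand-binding chain. It averaged 248 in irradiated HAEC, against 126 in control HAEC, and 159 in irradiated HUVEC, against 129 in control HUVEC. In IMR-90 it averaged 64.1 after irradiation and 76.6 at late passage, against 23.5 in proliferating cells. The ranges did not overlap in HAEC, where the libraries spanned 221 to 282 and 121 to 132, nor in IMR-90, and did overlap in HUVEC. In WI-38 it was higher with HRAS, at 22.8, against 10.0 with the empty vector, and at late passage, at 62.0, against 47.7 in proliferating cells. It was lower with doxorubicin in the first set, at 27.5, against 47.2 in the controls, and after irradiation, at 50.1, against 75.6 in the controls. None of these 4 pairs of groups overlapped, whereas those of the doxorubicin repeat did, at 45.6, against 53.3 in its controls. The ratio is a description that was not tested, and in groups of 2 or 3 libraries a lack of overlap is weak evidence.

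SOCS3, the feedback inhibitor that STAT3 induces, was followed in every comparison. It fell to 31.03 and 32.3 CPM in irradiated and 25.5 and 25.1 CPM in late-passage IMR-90, against 276 and 212 CPM in proliferating IMR-90 (7.71-fold lower, edgeR adjusted p = 1.77e-11, and 9.64-fold lower, edgeR adjusted p = 6.76e-12). With HRAS it rose to 114 and 122 CPM, against 33.6 and 41.9 CPM with the empty vector (3.12-fold, edgeR adjusted p = 1.49e-06). These groups were far apart. In the other WI-38 experiments, in 3 of which IL6 was called higher, SOCS3 did not pass. Its value was lower after doxorubicin in the first set (-0.32 ± 0.13). It was higher in the repeat (0.94 ± 0.35), after irradiation (0.87 ± 0.35) and at late passage (0.41 ± 0.35). The groups did not overlap in any of these comparisons. Without the low-count filter SOCS3 was called in the repeat (edgeR adjusted p = 0.00498) and after irradiation (0.00646). It was at 33.8 and 35.8 CPM after doxorubicin, against 43.0 and 43.7 CPM in the controls (edgeR adjusted p = 0.102), at 7.26 and 16.8 CPM in the repeat, against 6.20 and 6.31 CPM in its controls (0.145), at 11.4 and 20.9 CPM after irradiation, against 7.37 and 10.3 CPM (0.111), and at 7.90 and 9.67 CPM at late passage, against 6.39 and 6.79 CPM (0.511). Irradiated HAEC held 14.3, 13.9 and 13.1 CPM, against 17.7 and 18.7 CPM in control HAEC (1.32-fold lower, edgeR adjusted p = 9.19e-06), and HUVEC did not pass (0.973). The response of SOCS3 to HRAS exceeded that to doxorubicin by 1.96 ± 0.19 (edgeR adjusted p = 1.17e-05).

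**Figure D5:**
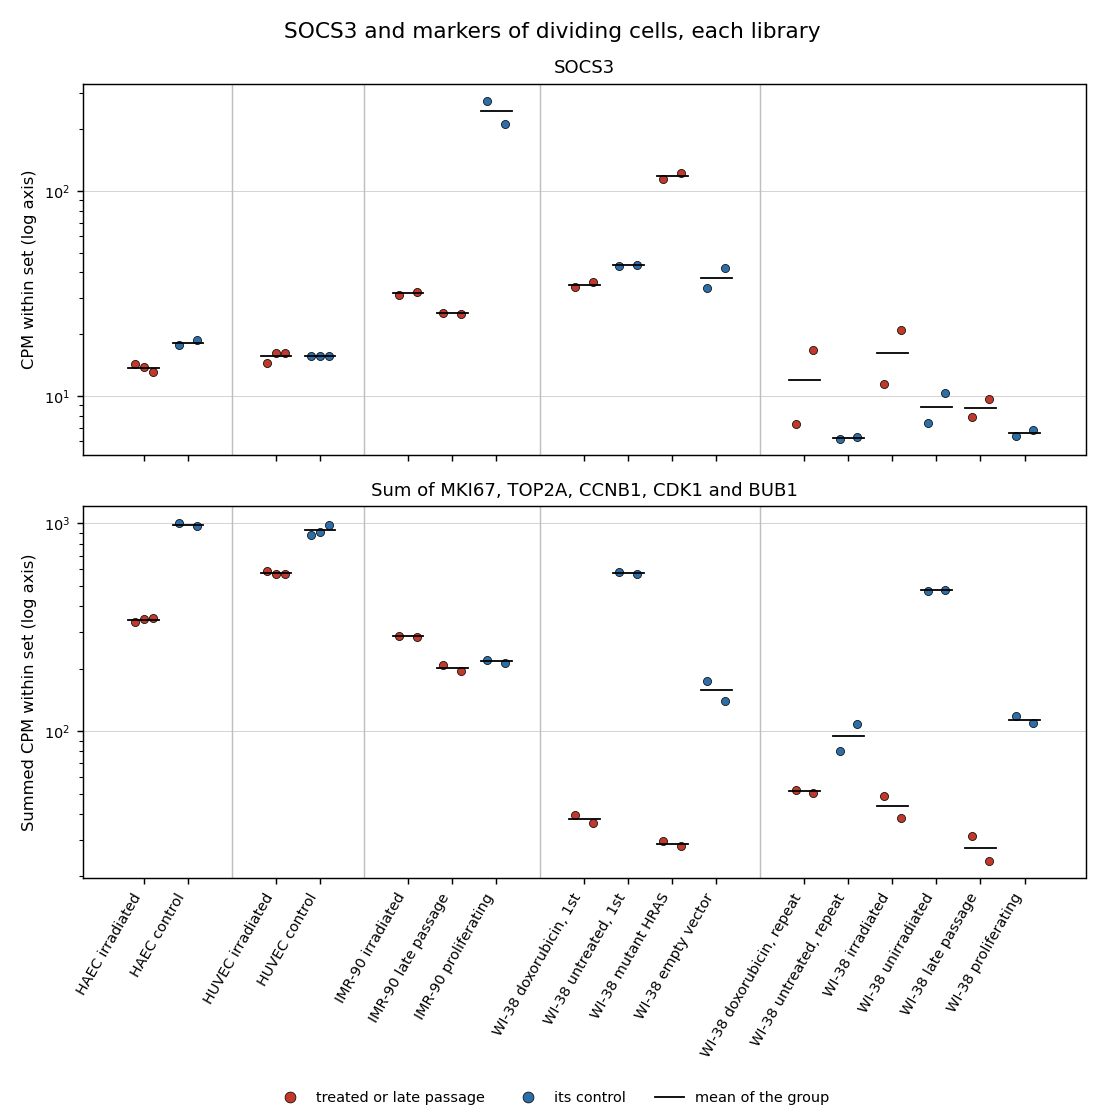
SOCS3 (top) and the sum of 5 markers of dividing cells (bottom) in CPM in each library (points, log axes) with group means (bars), treated or late-passage groups in red and controls in blue. SOCS3 stands at 276 and 212 CPM in proliferating IMR-90 and at 122 CPM or less in the other libraries, and the marker sum of irradiated IMR-90, at 285 and 287 CPM, lies above that of proliferating IMR-90 at 214 and 221 CPM.

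Genes known to be induced through STAT3 or C/EBP factors were counted as a list of 11 (BCL3, PIM1, JUNB, CEBPB, CEBPD, BCL6, MYC, MCL1, SERPINA3, SAA1 and TIMP1). In irradiated and late-passage IMR-90 49.1% and 50.1% of all genes were called. Of the list, 1 rose and 7 fell of 10 tested in both (median -1.63 and -1.27, against -0.02 and -0.04 over all genes). The 1 that rose was TIMP1, an inhibitor of metalloproteases (1.93 ± 0.13 and 2.10 ± 0.13), and CEBPD, a C/EBP factor, led those that fell (-2.21 ± 0.07 and -1.87 ± 0.07). After irradiation of WI-38, where 15% of all genes were called, 7 rose and 0 fell of 11, led by TIMP1 (1.501 ± 0.20). The median of the list was 1.05, against -0.06 over all genes. With HRAS 6 rose and 3 fell (median 1.35, against 0.07, with 45.9% of all genes called). TIMP1 led those that rose (2.02 ± 0.13) and the kinase PIM1 those that fell (-1.84 ± 0.15). With doxorubicin 5 rose and 1 fell of 11 in the first set (median 0.15, against 0.01, with 26.8% of all genes called), and 1 rose and 0 fell in the repeat (median 0.36, against 0.04, with 5.45% called). At late passage of WI-38 1 rose and 1 fell (median -0.06, against 0.01, with 12.6% called). In irradiated HAEC 5 rose and 2 fell of 10 (median 0.39, against 0.01, with 39.7% called), and in HUVEC 4 rose and 3 fell of 9 (median 0.30, against 0.01, with 38.7% called), in both led by JUNB, a subunit of AP-1 (1.06 ± 0.08 and 0.83 ± 0.07).

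Among signal transducers, GAB1, a docking protein, fell in both IMR-90 comparisons (-1.54 ± 0.08 after irradiation and -1.26 ± 0.08 at late passage), and the phosphatase PTPN11 rose in both (0.68 ± 0.05 and 0.75 ± 0.05). JAK1, a kinase bound to IL6ST, fell in irradiated HAEC to 286 to 294 CPM, against 411 to 412 CPM in control HAEC (-0.51 ± 0.03). GAB1 also fell with HRAS (-1.18 ± 0.15). Among 8 feedback inhibitors and sheddases (SOCS1, SOCS2, SOCS3, CISH, PIAS3, PTPN2, ADAM10 and ADAM17) SOCS1 fell with HRAS to 1.19 to 1.46 CPM, against 7.31 to 9.08 CPM with the empty vector (-2.63 ± 0.20), while SOCS3 rose there. The list had 2 up and 2 down in HAEC (39.7% of all genes called) and 3 up and 0 down in HUVEC (38.7%), shares near those of all genes. It had 3 up and 5 down in each IMR-90 comparison (49.1% called after irradiation and 50.1% at late passage). With HRAS it had 2 up and 4 down (45.9%). With doxorubicin it had 1 up and 1 down in the first set (26.8%) and 0 up and 1 down in the repeat (5.45%). In WI-38 it had 0 up and 1 down after irradiation (15%) and 0 up and 3 down at late passage (12.6%).

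Of the other ligands and receptors of the family, OSM, CNTFR, IL27 and IL31 stayed at or below 0.18 CPM in every library. RNA for oncostatin M, which OSMR receives, and for the specific receptor of CLCF1 was thus at or near 0 in these cells. IL11RA, the receptor of IL11, fell with HRAS to 3.90 to 4.28 CPM, against 14.7 to 17.2 CPM with the empty vector (-1.96 ± 0.16, edgeR adjusted p = 1.11e-06), while in irradiated IMR-90, where IL11 rose, it did not pass (-0.10 ± 0.08, edgeR adjusted p = 0.330), and at late passage it rose by 0.35 ± 0.08 (edgeR adjusted p = 0.00229). CTF1, another ligand of LIFR, rose in irradiated IMR-90 to 1.90 to 2.07 CPM, against 0.888 to 1.20 CPM in proliferating IMR-90 (0.92 ± 0.19, edgeR adjusted p = 9.28e-04). EBI3, a subunit of interleukin-27, rose in irradiated WI-38 to 1.54 to 2.72 CPM, against 0.162 to 0.197 CPM in the controls (3.57 ± 0.51, edgeR adjusted p = 2.47e-04).

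Some member counts may hold reads of other genes, since it is not known whether counting used strand. The antisense gene IL6-AS1 (AC073072.1) overlaps 20.7% of the exon bases of IL6. It stood at 6.47 and 7.65 CPM with HRAS, against 0.702 and 0.810 CPM with the empty vector, and at 16.1 and 19.9 CPM in irradiated WI-38, against 2.34 and 1.96 CPM in the controls. In HAEC it was at 2.72 to 2.99 CPM after irradiation, against 2.34 to 2.82 CPM in the controls. In HUVEC it was at 2.61 to 3.05 CPM after irradiation, against 2.39 to 2.90 CPM in the controls. IL6 itself lay only at 4.67 to 7.32 CPM in these endothelial libraries, so its small changes there are the more open to shared reads. Without strand, reads of IL6 and IL6-AS1 in the overlap cannot be told apart. IL6ST shares 8.58% of its exon bases with the antisense gene AC008914.1, at 20.02 to 162 CPM, and 5.52% of its 31-base stretches with other genes, mostly the pseudogene IL6STP1. For the other 6 members the overlap was at most 5.30% of exon bases and the shared stretches at most 5.95%.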

How the data were processed

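The authors deposited raw counts of reads for each gene as whole numbers. Per the submitters' processing notes, bcl2fastq, cutadapt, STAR 2.4, featureCounts and hg19 were used. Strand use, settings and annotation release: not given in the sources used here. Of 57773 identifiers, 51996 matched the gene-name table and 342 more GENCODE 29, which also gave exon lengths and overlaps. Comparisons used edgeR 4.0.16 in R 4.3.3 (quasi-likelihood test, TMM, filterByExpr, Benjamini-Hochberg adjusted p below 0.05 over all genes), 1 fit per set, so that its groups share 1 estimate of the spread. Differences between responses used 1 fit over the sets concerned. Standard errors come from the quasi-likelihood F statistic (effect size over its root). CPM used TMM-scaled totals within a set. The procedure was tested on simulated counts. The biological coefficient of variation was 38.1% in the second and 16.3% in the first WI-38 set, 8.41% in IMR-90, 6.94% in HUVEC and 5.69% in HAEC. Members, lists and the rule for names (in each list, the smallest adjusted p per direction and comparison, with SOCS3 throughout) were chosen with earlier results of these data known. AC073072.1, AC008914.1, IL6STP1, IL11RA in IMR-90, OSM, CNTFR, IL27 and IL31 were named after their values were seen. Alternatives were DESeq2 1.42.0 size factors and Wald test, no low-count filter, only the compared groups, the replicate number as a term, and each library left out. Some genes of the lists of signal transducers and of other ligands and receptors, and the counts over those lists, are not reported here.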

Additional observations from a re-analysis of the deposited data

Results flagged for a closer look

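Each result here is a difference between the responses of 2 cell types or experiments that passed edgeR's test of the difference itself, in log2 units. The irradiation response of HUVEC was below that of HAEC for IL6ST (-0.43) and LIFR (-0.34). The irradiation response of WI-38 differed from that of IMR-90 for IL6 (4.94), LIF (3.08), IL6R (2.38), OSMR (1.36), CLCF1 (0.96), LIFR (0.96) and IL11 (-2.23). The late-passage response of WI-38 differed from that of IMR-90 for IL6 (1.62), LIF (1.05), IL6R (1.17), OSMR (0.97) and IL11 (-1.23). The doxorubicin response in the repeat was below that in the first experiment for IL6 (-1.25) and LIF (-1.87). Of all genes 18%, 19.9%, 11.9% and 4.42% were called in these tests, in this order. Leaving out single libraries ended the CLCF1 and LIFR calls of WI-38 against IMR-90 after irradiation. It also ended those of LIF, IL6R and IL11 at late passage and of IL6 with doxorubicin. The set of libraries cannot be told apart from the strain in the tests of WI-38 against IMR-90, nor from the experiment with doxorubicin.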

How the results depend on the processing

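Over 120 tested values of single members, 1248 values under alternatives were computed, of which 1109 kept both direction and side of the threshold. Another 65 lost the call, 34 gained one and 40 changed sign, and no value that was called changed sign. Of the 62 calls 45 held under every alternative run. At late passage of WI-38 the number of members called was 2 with DESeq2's Wald test, 2 with only these groups fitted and 1 without the low-count filter, against 0, and between irradiated and late-passage IMR-90 it was 4 without the filter, against 2. With 1 library left out, the number called ranged from 1 to 3 in HUVEC, 1 to 3 in the doxorubicin repeat, 0 to 1 at late passage of WI-38, 2 to 5 for the late-passage difference, 1 to 2 for the doxorubicin difference and 1 to 4 between irradiated and late-passage IMR-90. Uncalled log2 values changed sign as follows, and the cause was not tested. OSMR in HAEC was -0.000297094 with DESeq2's Wald test and -0.0002848 with its size factors. With 1 library left out, LIF ranged from -0.38 to 0.85 and OSMR from -0.0232 to 0.0331 in HAEC, IL6ST from -0.0568 to 0.0104 and OSMR from -0.0079 to 0.0806 in HUVEC, and IL6ST from -0.0498 to 0.28 in late-passage IMR-90. With HRAS IL6R ranged from -0.12 to 0.0038 and LIFR from -0.16 to 0.67. In the doxorubicin repeat IL11 ranged from -0.40 to 0.39 and CLCF1 from -0.0048 to 0.37. After irradiation of WI-38 IL6ST ranged from -0.34 to 0.77 and LIFR from -0.18 to 0.81. At late passage of WI-38 IL11 ranged from -0.43 to 0.40, CLCF1 from -0.11 to 0.0819 and IL6ST from -0.23 to 0.23. Among differences between responses, that of HUVEC from HAEC ranged from -0.30 to 0.93 for LIF, -0.33 to 0.68 for IL11 and -0.0436 to 0.0525 for OSMR. For IL6ST, that of WI-38 from IMR-90 ranged from -0.25 to 0.85 after irradiation and -0.36 to 0.11 at late passage. That of the doxorubicin repeat from the first experiment ranged from -0.23 to 0.54 for IL11. Between irradiated and late-passage IMR-90 LIF ranged from -0.19 to 0.16, OSMR from -0.15 to 0.14 and IL6R from -0.0213 to 0.0362, and IL6R was -0.00838 with DESeq2's Wald test and -0.00840 with its size factors.

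The labels do not say what a replicate number stands for. Deviations of same-numbered samples correlated at 0.68 for HRAS with empty vector and 0.447 for irradiated WI-38 with its controls, and between -0.307 and 0.103 elsewhere. Since no label ties same-numbered samples together, the numbers were not taken as pairs in the main fits, also where they correlated. With the replicate block, IL11 was -0.0153 in the doxorubicin repeat and -0.0230 at late passage of WI-38, and IL6ST was -0.0169 at late passage. The block ended the calls of IL6 in HUVEC (edgeR adjusted p = 0.0510) and of the LIFR difference between WI-38 and IMR-90 (0.0535). At late passage of WI-38 a crossed pairing, chosen after seeing the data, called 0 members and 1709 genes higher and 2056 lower, against 1951 and 2292. Under DESeq2's size factors the median of all genes in irradiated WI-38 was -0.13, against -0.06.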

Other observations

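Genes whose pattern was most like that of a member were found by Pearson's r over 17 group means, each centred within its set, among 22390 genes, as a description. IL6 was most like its antisense neighbour IL6-AS1 (r = 0.978), which shares exon bases with it, and CTSS (0.955). LIF was most like CCDC69 (0.961) and DZANK1 (0.944), IL11 like NF2 (0.924) and PYCR3 (0.923), CLCF1 like ENSG00000251131 (0.955) and HEY1 (0.953), and IL6R like FAM227A (0.890) and LRIG2-DT (0.887). IL6ST was most like ENSG00000262211 (0.970), the antisense gene AC008914.1 that overlaps it, and TRIM23 (0.969), OSMR like PHLDA1-DT (0.949) and PDCD6P1 (0.947), and LIFR like DCUN1D4 (0.964) and ENSG00000267481 (0.952). Among the members themselves the highest r were those of IL6 with LIF (0.878), IL6ST with LIFR (0.869) and IL6 with OSMR (0.806), and the lowest was that of IL11 with IL6R (-0.763). The groups share libraries, controls and depth within a set.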
